A study of Mus musculus with 12 samples.

Results

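The 34 genes described here encode proteins that sense damaged DNA, halt the cell cycle and repair the lesion. They come from a list of 37 DNA damage repair and checkpoint genes chosen by name, and earlier results of these data were known when the list was drawn up. A gene was included when the array's annotation gave a probe set with that gene symbol alone, and where there was a choice the brightest probe set, averaged across the 12 arrays, stood for the gene. These 34 are among 22180 genes measured in this way. Rad54b and Fanca shared their probe sets with another gene, and Xrcc2 had none listed, so these 3 were not analysed here. Atr had 2 probe sets and the other 33 genes had 1 each.

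Liver RNA was measured on 12 arrays, 6 from male C57BL6/J mice injected through the tail vein with Ad-GFP (an Ad5 adenovirus carrying green fluorescent protein, replicates 1 to 6) and 6 from mice given Ad-hApoF (Ad5 carrying human apolipoprotein F, a lipoprotein-associated protein, replicates 7 to 12). All mice were 8 to 10 weeks old and were killed 4 days after injection, at 3 pm and after 6 h of fasting. Livers without any virus are not part of the comparison. The labels give no viral dose and no promoter for the transferred genes. Nor do they say whether every array stands for a separate mouse, so p-values reflect array-to-array spread, which may be partly technical.

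A double-strand break is sensed by the Mre11a, Rad50 and Nbn complex, which activates the kinase Atm, while single-stranded DNA at stalled forks activates Atr through Atrip and Topbp1. Atm and Atr signal to the kinases Chek2 and Chek1, which hold the cell cycle. Breaks are then joined end to end or, mainly in cells that have replicated their DNA, copied from the sister chromatid by homologous recombination. Many recombination and crosslink repair genes are transcribed most in dividing cells, and most hepatocytes of an adult liver are not dividing.

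Values are log2 RMA values, in which 1 unit is a doubling, and differences are hApoF minus GFP. Array medians lay between 4.93 and 5.03, but the arrays were not level throughout. Upper quartiles were 6.673 to 6.814 in GFP and 6.668 to 6.726 in hApoF arrays. Lower quartiles were 3.659 to 3.798 in GFP and 3.741 to 3.796 in hApoF arrays. GFP 4 had a lower quartile of 3.798 and an upper quartile of 6.673, the highest and the lowest of the GFP arrays. The part of this in small differences was not tested. Defining hepatocyte markers were high in both groups, with a mean over 10 genes of 11.17 to 11.33 in GFP arrays and 11.24 to 11.46 in hApoF arrays, and 0 of the 10 changed. GFP 4 stood apart from the other GFP arrays, mostly as the lowest, in many of the genes described here. Counts are therefore also given without it and without hApoF 12, the hApoF array with the lowest mean level of mitotic and replication genes. The omission of GFP 4 was chosen from these same values. Leaving out a low GFP array raises the GFP mean and so widens falls, and these counts are no independent check.

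Of the 34 genes, 21 (61.8%) were lower in hApoF livers, 0 were higher and 13 did not pass the test (limma with Benjamini-Hochberg adjustment over all 22180 genes, adjusted p under 0.05). At an unadjusted limma p under 0.05 the count was 25, all lower, and 11.1% of all genes were lower at that threshold. Over all genes 4.80% were lower and 2.11% higher. The falls were deepest in the recombination gene Brca2, the checkpoint kinase gene Chek1, the helicase gene Blm, the polymerase gene Polq and the crosslink repair gene Fanci. In these 5 genes the log2 difference was -1 or below, and 0.667% of all genes both passed and fell that far. The median log2 difference of the 34 genes was -0.37, against 0.03 for all genes, and 32 of the 34 differences were below 0. These medians are not matched for level, since 28 of the 34 genes but 12432 of all 22180 had a mean above 4.98. In 14 of the 34 genes (41.2%), all of them among the 21 that fell, every hApoF array lay below every GFP array (in Rad54l by less than the rounding of the values). Over all genes the share with this pattern was 3.49%. Without GFP 4 and hApoF 12, 23 of the 34 genes were lower and 0 higher, and 6.07% of all genes were lower. GFP 4 was picked for its low values in these genes, which favours a higher count. In bulk liver, fewer cells that express a gene and less RNA per cell cannot be told apart.

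**Figure D1:**
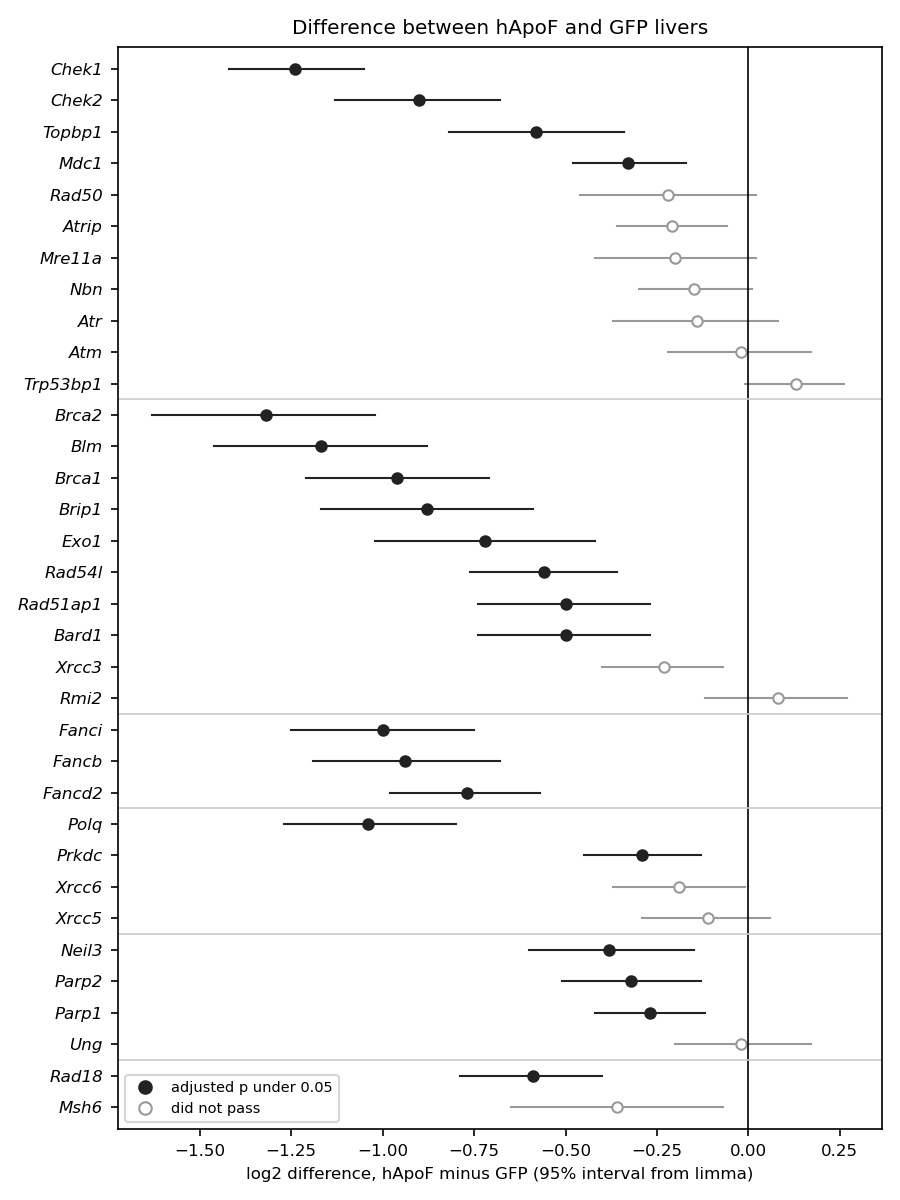
Log2 difference between hApoF and GFP livers (x axis) for each of the 34 genes, grouped by role from checkpoint signalling at the top to mismatch repair and damage bypass at the bottom. Points are limma estimates from 6 against 6 arrays and lines their unadjusted 95% intervals. The 21 filled points passed the test and all lie left of 0, from -0.27 (Parp1) to -1.32 (Brca2).

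Promoter sequences are shown for 5 of the genes, because E2F transcription factors, which switch on many replication and repair genes as cells enter the cell cycle, bind near gene starts. RefSeq promoter windows (GRCm38.p6, 250 bases before to 50 bases after the annotated gene start) matched 28 of the 34 genes. Capitals mark the 8-letter E2F words TTTCCCGC, TTTGGCGC, TTTCGCGC and TTTGCCGC on either strand. The windows are of Brca2 (chr5:150522371-150522670, plus strand), Chek2 (chr5:110839733-110840032, plus strand) and Topbp1 (chr9:103305077-103305376, plus strand), which fell and hold a word, of Chek1 (chr9:36726609-36726908, minus strand), which fell further than Chek2 and holds none, and of Xrcc6 (chr15:82016119-82016418, plus strand), which did not pass and holds one.
Brca2: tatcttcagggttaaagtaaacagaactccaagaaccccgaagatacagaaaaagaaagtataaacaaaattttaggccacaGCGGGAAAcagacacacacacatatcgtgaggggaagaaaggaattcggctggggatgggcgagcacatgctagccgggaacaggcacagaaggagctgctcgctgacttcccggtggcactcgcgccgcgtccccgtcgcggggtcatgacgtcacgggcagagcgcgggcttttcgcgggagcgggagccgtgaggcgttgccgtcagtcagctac
Chek2: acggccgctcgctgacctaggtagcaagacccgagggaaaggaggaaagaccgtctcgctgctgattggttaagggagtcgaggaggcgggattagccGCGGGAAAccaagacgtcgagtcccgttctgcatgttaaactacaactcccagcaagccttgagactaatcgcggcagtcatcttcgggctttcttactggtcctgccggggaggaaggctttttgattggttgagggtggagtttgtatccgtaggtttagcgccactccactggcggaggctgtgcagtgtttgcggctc
Topbp1: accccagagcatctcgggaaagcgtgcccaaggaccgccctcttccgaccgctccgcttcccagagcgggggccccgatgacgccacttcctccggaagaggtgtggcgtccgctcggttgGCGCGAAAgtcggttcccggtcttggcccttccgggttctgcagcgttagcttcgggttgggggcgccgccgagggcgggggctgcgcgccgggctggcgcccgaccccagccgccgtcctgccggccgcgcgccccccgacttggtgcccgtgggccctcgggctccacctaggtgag
Chek1: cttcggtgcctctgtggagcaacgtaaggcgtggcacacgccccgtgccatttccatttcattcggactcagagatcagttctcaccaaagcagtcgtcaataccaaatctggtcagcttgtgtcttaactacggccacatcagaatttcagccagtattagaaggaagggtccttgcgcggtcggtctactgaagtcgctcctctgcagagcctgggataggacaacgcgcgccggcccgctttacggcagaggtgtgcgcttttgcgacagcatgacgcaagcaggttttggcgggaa
Xrcc6: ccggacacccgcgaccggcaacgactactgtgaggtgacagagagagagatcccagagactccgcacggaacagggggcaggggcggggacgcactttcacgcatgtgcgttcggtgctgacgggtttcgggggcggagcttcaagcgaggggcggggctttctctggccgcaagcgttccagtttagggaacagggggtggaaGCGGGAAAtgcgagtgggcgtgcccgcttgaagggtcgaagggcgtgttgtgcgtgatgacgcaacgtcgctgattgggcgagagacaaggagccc

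The E2F word began 168 bases before the start of Brca2, 152 before that of Chek2, 129 before that of Topbp1 and 46 before that of Xrcc6. Of the 18 genes that fell and had a window, 5 (27.8%) held an E2F word, namely Topbp1, Chek2, Mdc1, Brca2 and Bard1. Of the 10 windowed genes that did not pass, 2 (20.0%) held one, Xrcc6 and Msh6. Over the 27025 genes of the promoter table the share was 2.6%. That table is not limited to the measured genes. Each E2F word contains CG, and the windows were not matched for base content. Whether the shares differ was not tested. The cell cycle homology region words TTTGAA or TTCGAA were in 16.7% of the windowed genes that fell, 10.0% of those that did not pass and 21.7% of all. A CCAAT box, CCAAT on either strand, was in 44.4%, 70.0% and 41.1%. The E2F words overlap neither of the other motifs. The Chek1 window ends in GCGGGAA, which is GCGGGAAA (TTTCCCGC read on the other strand) without its last letter. The next base lies outside the window and was not searched. A match describes letters only, and a window without a match says nothing about binding.

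In checkpoint signalling the effector kinases Chek1 and Chek2 fell and the apical kinases Atm and Atr did not pass. Of 11 genes, 4 were lower (Chek1, Chek2, Topbp1 and Mdc1), 0 were higher and 7 did not pass, and the median log2 difference was -0.21. Chek1, the kinase through which Atr restrains cell division, had GFP values of 6.21 at the lowest, 6.58 at the median and 6.62 at the highest. Its hApoF values were 5.11, 5.26 and 5.46. The groups were separated by more than the spread within either, and the level fell 2.35-fold (log2 difference -1.24, SE 0.09, limma adjusted p = 6.1e-06). Chek2, the kinase activated by Atm, ran from 6.13 through a median of 6.36 to 6.54 in GFP arrays and from 5.01 through 5.45 to 5.64 in hApoF arrays. It also fell without overlap (log2 difference -0.90, SE 0.11, limma adjusted p = 8.1e-05), with hApoF 12 the lowest array.

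Topbp1, the activator of Atr, had values of 7.73, 8.19 and 8.40 (lowest, median, highest) in GFP arrays and of 7.36, 7.54 and 7.76 in hApoF arrays. GFP 4 was the lowest GFP array and lay below 2 hApoF arrays, while the next lowest GFP array, at 8.05, lay above all of them. Topbp1 fell 1.49-fold (log2 difference -0.58, SE 0.11, limma adjusted p = 0.0052). Mdc1, the scaffold that binds phosphorylated histone H2AX beside a break, had values of 6.60, 6.70 and 6.88 in GFP arrays and 6.25, 6.44 and 6.50 in hApoF arrays. It fell by 0.33 on the log2 scale without overlap (SE 0.07, limma adjusted p = 0.012).

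Atm, the kinase that responds to double-strand breaks, was close to equal in the groups, at 6.87, 7.11 and 7.21 in GFP arrays and 6.93, 6.99 and 7.43 in hApoF arrays. Its log2 difference was -0.02 with a 95% interval of -0.22 to 0.17 (limma adjusted p = 0.913), so that a fall of the size seen in Chek1 lies outside the interval. Atr, the kinase of stalled forks, was 7.09 ± 0.16 (SD, n = 6) in GFP and 6.94 ± 0.22 in hApoF livers, a log2 difference of -0.14 (interval -0.37 to 0.08). Its dimmer probe set gave a log2 difference of -0.09, and neither passed. Atrip, the partner that brings Atr to single-stranded DNA, had a log2 difference of -0.21 (interval -0.36 to -0.06) and a limma adjusted p of 0.091, which was 0.041 among brighter genes alone and 0.044 without hApoF 11.

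The 3 subunits of the break-sensing complex did not pass. Their log2 differences were -0.20 for the nuclease gene Mre11a, -0.22 for Rad50, the subunit that bridges DNA ends, and -0.15 for Nbn, the subunit that contacts Atm. Rad50 passed without GFP 4 and hApoF 12 (log2 difference -0.37, limma adjusted p = 0.019). These were its lowest GFP and its highest hApoF array, so leaving them out must widen the difference. Trp53bp1, which steers breaks towards end joining, was the checkpoint gene with a difference above 0, at 0.13 (interval -0.01 to 0.26, limma adjusted p = 0.257). Its GFP arrays spanned 6.37 to 6.48 and its hApoF arrays 6.45 to 6.70.

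**Figure D2:**
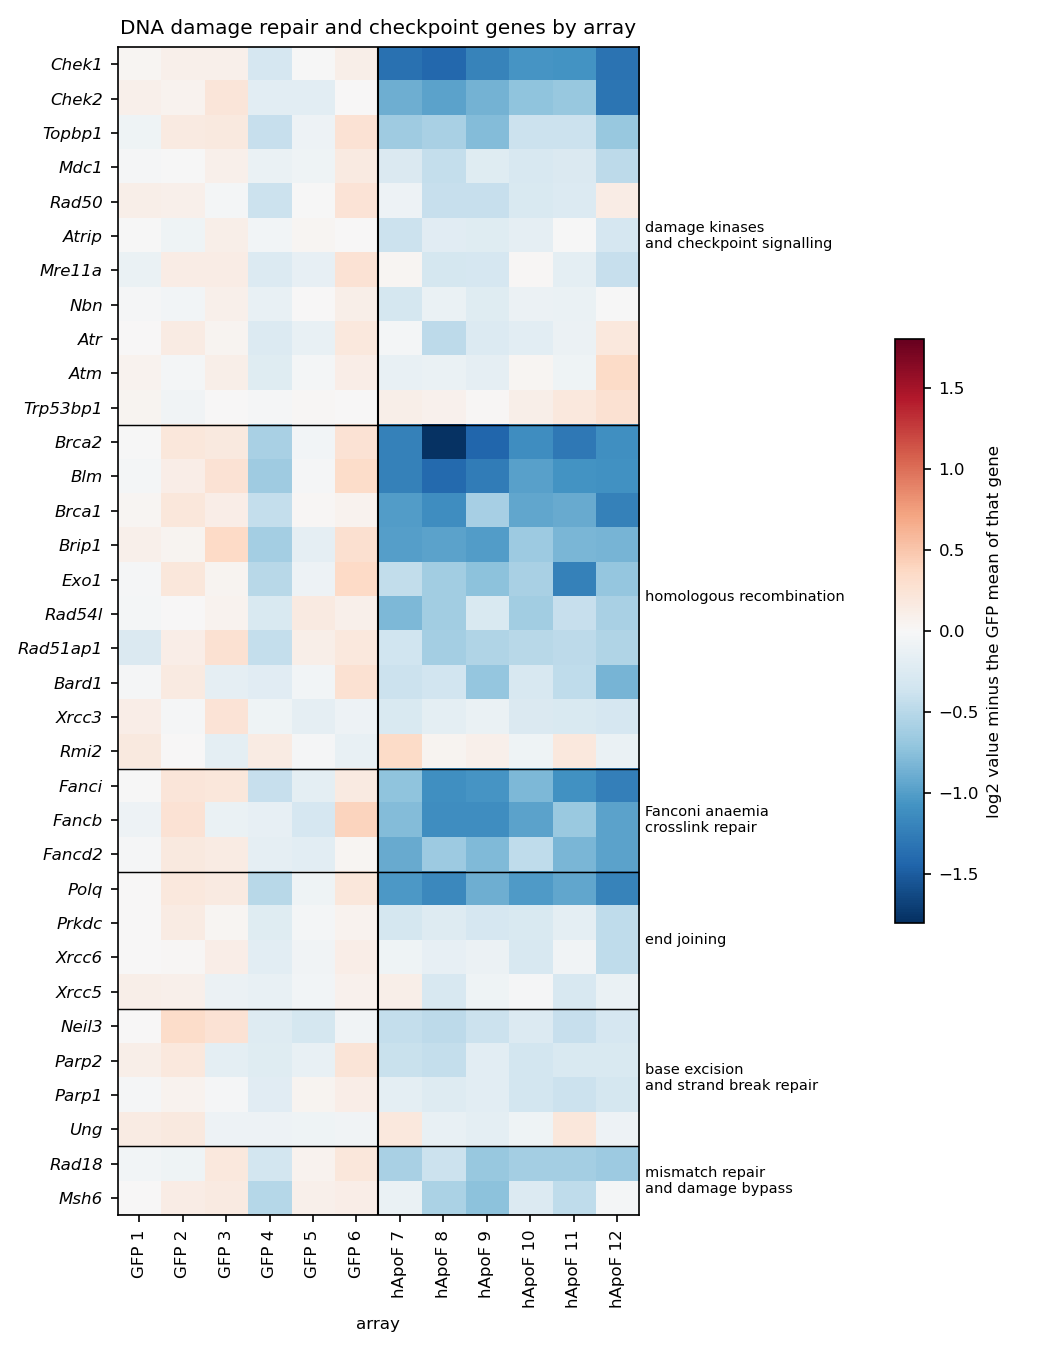
Each row is 1 of the 34 genes and each column 1 array, coloured by the log2 value minus that gene's mean over the 6 GFP arrays (blue lower, red higher). Rows are grouped by role. Blue fills the 6 hApoF columns for Chek1, Brca2, Blm, Fanci and Polq, a paler blue marks many genes in GFP 4, and the rows of Atm, Rmi2 and Ung show no such change.

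In homologous recombination 8 of 10 genes were lower, 0 were higher and 2 did not pass, with a median log2 difference of -0.64. Brca2, which loads the recombinase onto single-stranded DNA, was at 6.42, 7.09 and 7.26 (lowest, median, highest) in GFP arrays and 5.23, 5.75 and 5.90 in hApoF arrays. The lowest GFP array, GFP 4, still lay above every hApoF array. The fall was 2.50-fold (log2 difference -1.32, SE 0.14, limma adjusted p = 3.9e-05). Blm, the Bloom syndrome helicase that unlinks joined chromatids, was at 6.20, 6.89 and 7.17 in GFP arrays and 5.44, 5.69 and 5.86 in hApoF arrays. It fell 2.25-fold without overlap (log2 difference -1.17, SE 0.14, limma adjusted p = 7.6e-05).

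Brca1, which with Bard1 forms a ubiquitin ligase that promotes resection of the broken end, was at 5.98, 6.45 and 6.62 in GFP arrays and 5.20, 5.44 and 5.82 in hApoF arrays. It fell 1.95-fold (log2 difference -0.96, SE 0.12, limma adjusted p = 9.6e-05). Bard1 was at 4.90, 5.07 and 5.37 in GFP arrays and 4.27, 4.67 and 4.82 in hApoF arrays, and its log2 difference was -0.50 (SE 0.11, limma adjusted p = 0.010). Neither gene's groups overlapped. The difference Brca1 minus Bard1 within an array was 1.31 ± 0.19 (SD, n = 6) in GFP and 0.85 ± 0.31 in hApoF livers, with ranges that overlapped. Brip1, a helicase that binds Brca1, was at 6.14, 6.83 and 7.11 in GFP arrays and 5.75, 5.86 and 6.10 in hApoF arrays, so that GFP 4, the lowest GFP array, lay just above the highest hApoF array and the next GFP array was at 6.59. Brip1 fell by 0.88 on the log2 scale (SE 0.14, limma adjusted p = 8.7e-04).

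Exo1, an exonuclease that lengthens the resected strand, was at 5.42, 5.94 and 6.28 in GFP arrays and 4.71, 5.26 and 5.47 in hApoF arrays. GFP 4 lay below 1 hApoF array, and the log2 difference was -0.72 (SE 0.14, limma adjusted p = 0.0056). Rad54l, a motor protein that drives strand exchange, fell by 0.56 (limma adjusted p = 0.0019) from 5.13 ± 0.15 to 4.57 ± 0.19 (SD, n = 6 per group), and its lowest GFP and highest hApoF arrays were level at 4.86. Rad51ap1, a stimulator of strand invasion, fell by 0.50 (limma adjusted p = 0.012), from 4.91 ± 0.28 to 4.40 ± 0.08, with GFP 4 at 4.47 below the highest hApoF array at 4.54. Xrcc3, a relative of the recombinase, had a log2 difference of -0.23 (interval -0.40 to -0.07) and a limma adjusted p of 0.084, which was 0.039 among brighter genes alone.

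Rmi2, a small subunit of the complex in which Blm works, was at 4.44, 4.62 and 4.79 in GFP arrays and 4.50, 4.68 and 4.96 in hApoF arrays. Its log2 difference was 0.08 (interval -0.12 to 0.27, limma adjusted p = 0.686), and both group means lay below the median array value of 4.98. The difference Blm minus Rmi2 within an array ran from 1.43 to 2.69 in GFP and from 0.68 to 1.32 in hApoF livers, without overlap. Of 10 pairs of partner genes looked at in this way, chosen after the values were seen and not tested, this was the only 1 without overlap.

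The 3 measured genes of Fanconi anaemia crosslink repair all fell, with differences from -0.77 to -1.0 and no overlap in any of them. Fanci, which with Fancd2 forms the clamp that is ubiquitinated at a crosslink, was at 4.89, 5.38 and 5.52 in GFP arrays and 4.07, 4.23 and 4.58 in hApoF arrays, a 2.0-fold fall (log2 difference -1.0, SE 0.12, limma adjusted p = 8.2e-05). Fancd2 was at 5.79, 5.99 and 6.16 in GFP arrays and 5.01, 5.17 and 5.52 in hApoF arrays, a 1.71-fold fall (log2 difference -0.77, SE 0.10, limma adjusted p = 1.4e-04). Both clamp genes fell, and the difference Fancd2 minus Fanci within an array overlapped between the groups (0.57 to 0.92 in GFP, 0.49 to 1.12 in hApoF). Fancb, a subunit of the ligase that modifies the clamp, fell by 0.94 (SE 0.12, limma adjusted p = 1.7e-04) to a mean of 3.83, below the array medians. Fanci and Fancb are 2 of the 6 genes that fell to an hApoF mean below the median array value of 4.98, where no detection call was available. The others were Bard1, Rad51ap1, Rad54l and Polq.

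Among the end joining genes the back-up polymerase fell and the Ku subunits did not pass. Polq, the polymerase of microhomology-mediated end joining, was at 5.25, 5.83 and 5.95 in GFP arrays and 4.54, 4.72 and 4.87 in hApoF arrays. It fell 2.05-fold without overlap (log2 difference -1.04, SE 0.11, limma adjusted p = 3.8e-05). Prkdc, the DNA-dependent protein kinase, was 6.90 ± 0.12 (SD, n = 6) in GFP and 6.61 ± 0.10 in hApoF livers, a log2 difference of -0.29 (limma adjusted p = 0.026) that lost its call in 6 of 12 omissions of a single array (limma adjusted p up to 0.070). The number of lower end joining genes was therefore 1 in place of 2 on leaving out any single one of GFP replicates 1, 2, 3 and 6 and hApoF replicates 7 and 9. Xrcc6 and Xrcc5, the subunits of the Ku ring that binds broken ends, had log2 differences of -0.19 (interval -0.37 to -0.01, limma adjusted p = 0.203) and -0.11 (interval -0.29 to 0.06, limma adjusted p = 0.455). Xrcc6 thus carried an E2F word in its window and did not pass.

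**Figure D3:**
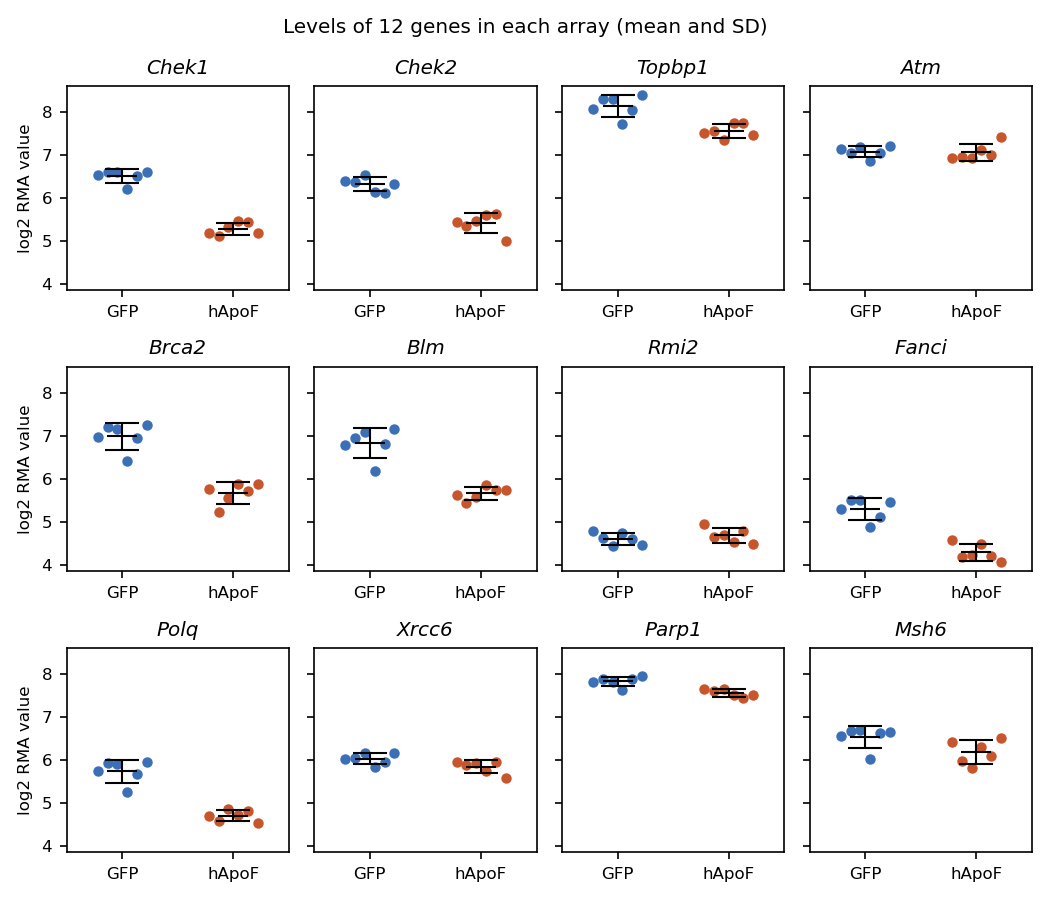
Log2 RMA values of 12 genes in each GFP array (blue) and hApoF array (orange), with the group mean and SD in black. Chek1, Chek2, Brca2, Blm, Fanci and Polq separate the groups, Topbp1 and Parp1 fell with partial overlap, and Atm, Rmi2, Xrcc6 and Msh6 did not pass.

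In base excision and strand break repair 3 of 4 genes were lower by small amounts, 0 were higher and 1 did not pass. Parp1, which marks strand breaks with poly(ADP-ribose), was at 7.64, 7.86 and 7.96 in GFP arrays and 7.45, 7.57 and 7.66 in hApoF arrays, and its log2 difference was -0.27 (SE 0.07, limma adjusted p = 0.031). Its relative Parp2 fell by 0.32 (SE 0.09, limma adjusted p = 0.044), from 7.27 ± 0.20 to 6.95 ± 0.09 (SD, n = 6 per group). Neil3, a glycosylase that also opens crosslinks, fell by 0.38 (SE 0.11, limma adjusted p = 0.044), from 5.61 ± 0.26 to 5.23 ± 0.09. All 3 overlapped between the groups. The count of 3 dropped to 0 on leaving out any single one of GFP replicates 1, 2 and 6 and hApoF replicates 10, 11 and 12, and to 1 on leaving out GFP replicate 3 or hApoF replicate 7 or 8. Ung, the glycosylase that removes uracil from DNA, was at 6.15, 6.17 and 6.42 in GFP arrays and 6.06, 6.15 and 6.44 in hApoF arrays, with a log2 difference of -0.02 (interval -0.20 to 0.17, limma adjusted p = 0.940).

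Rad18, the ubiquitin ligase that opens the damage bypass route at stalled forks, was at 6.50, 6.84 and 7.03 in GFP arrays and 6.14, 6.21 and 6.44 in hApoF arrays. It fell 1.51-fold without overlap (log2 difference -0.59, SE 0.09, limma adjusted p = 8.5e-04). Msh6, a subunit of the protein that recognises mismatched bases, was at 6.04, 6.66 and 6.71 in GFP arrays and 5.81, 6.21 and 6.51 in hApoF arrays. It did not pass (log2 difference -0.36, interval -0.65 to -0.07, limma adjusted p = 0.132). GFP 4 was at 6.04 in Msh6 and the next GFP array at 6.56, and without GFP 4 the log2 difference was -0.46 (limma adjusted p = 0.023). Leaving out the lowest GFP array must widen the difference.

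GFP 4 was the lowest GFP array in 17 of the 21 genes that fell and GFP 5 in the other 4, while GFP 6 was the highest in 12. GFP 4 was also lowest in 8 of the 13 genes that did not pass. In the hApoF group the lowest array was more mixed, hApoF 12 in 8 and hApoF 8 in 6 of the 21 genes. In the 13 genes that did not pass, hApoF 12 was the highest hApoF array in 6 (Atm, Atr, Trp53bp1, Rad50, Nbn and Msh6) and the lowest in 4. Of the 7 genes that fell but overlapped, 6 overlapped only through GFP 4, and the exception was Neil3.

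Mitotic and replication genes moved with these values. All 19 measured reference genes of this kind fell, with a median log2 difference of -1.29, and their mean per array was 7.13 to 7.74 in GFP and 5.69 to 6.55 in hApoF livers, lowest in GFP 4 and in hApoF 12. Mki67, the proliferation marker, was at 8.38, 8.99 and 9.12 in GFP arrays and 6.61, 7.26 and 7.80 in hApoF arrays. Of 13 p53 target genes 10 fell, with a median of -0.59. Mdm2 is on this list and also among the other checkpoint signalling genes below, so the lists are not separate. Cdkn1a, the p53-induced cell cycle inhibitor, was at 9.15, 9.27 and 10.01 in GFP arrays and 6.35, 7.15 and 7.46 in hApoF arrays. The part of the mitotic genes in the fall of the repair genes was not tested.

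**Figure D4:**
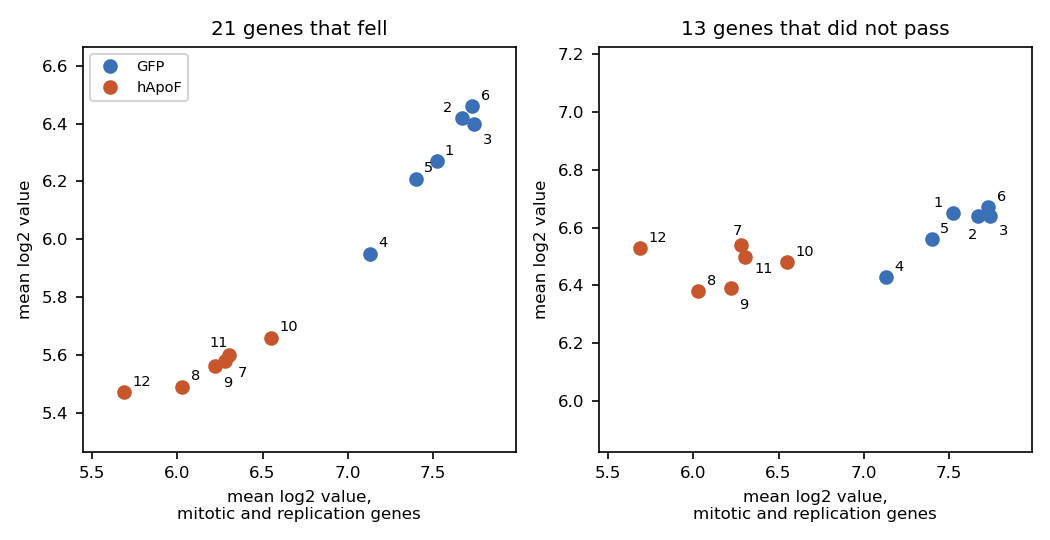
Mean log2 value per array of the 21 repair and checkpoint genes that fell (left) and of the 13 that did not pass (right) against the mean of 19 mitotic and replication genes, with each point 1 array marked by its replicate number (GFP blue, hApoF orange). The genes were divided by the test on the same arrays, so the distance between the groups on the left follows from that choice. GFP 4 is lowest among GFP arrays in both panels, at 5.95 and 6.43, and hApoF 12 is lowest among hApoF arrays on the left (5.47) but not on the right (6.53).

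The markers of other cell types that changed were higher in hApoF livers. The mean of 10 macrophage and Kupffer cell markers was 6.77 to 7.84 in GFP and 7.28 to 8.10 in hApoF arrays, with 2 of 10 higher. The log2 differences of these 10 ran from -0.13 to 1.38, with a median of 0.16. For 8 endothelial markers the mean was 7.91 to 8.43 and 8.25 to 8.62, with 1 of 8 higher. For 9 stellate and fibroblast markers it was 7.37 to 7.72 and 7.61 to 7.91, with 3 of 9 higher and 3 log2 differences below 0. Over all genes 2.11% were higher. T and NK cell markers had means of 4.70 to 5.02 and 4.80 to 5.01, near the array medians, and 0 of 11 changed. B cell markers (5 genes) and bile duct markers (5 genes) had 0 changed, erythroid markers (2 genes) 0, and neutrophil markers 1 of 7 higher. At an unadjusted limma p under 0.05, in either direction, the lists with 0 changed had 3 (hepatocyte), 3 (T and NK cell), 1 (B cell), 3 (bile duct) and 1 (erythroid), beside 21.3% of all genes at that threshold. The lists with a changed gene had 6 of 8 (endothelial), 6 of 9 (stellate and fibroblast), 3 of 10 (macrophage and Kupffer cell) and 2 of 7 (neutrophil) at the same threshold. All 8 endothelial log2 differences were above 0, from 0.21 to 0.44. GFP 4 had the highest mean of the GFP arrays in 7 of the 9 cell type marker lists, the T and NK cell and neutrophil lists being the exceptions. Its mean was 7.84 for macrophage and Kupffer cell markers (next GFP array 7.46), 8.43 for endothelial markers (next 8.35) and 7.72 for stellate and fibroblast markers (next 7.62). The part of these cells in the falls was not tested.

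In the wider repair machinery nearly all genes that changed were lower too. Of 136 other DNA repair genes measured, 33 (24.3%) were lower, 1 was higher and 102 did not pass, with a median log2 difference of -0.15. Among other checkpoint signalling genes 13 of 29 were lower, among other homologous recombination genes 9 of 33, among damage bypass and direct reversal genes 4 of 13, among other base excision and strand break genes 4 of 17 and among other Fanconi anaemia genes 3 of 15. In other end joining (9 genes) and other mismatch repair (4 genes) the limma count was 0 in both directions, and 3 and 1 genes had an unadjusted p under 0.05. In nucleotide excision repair, which removes bulky lesions in resting and dividing cells alike, 0 of 18 were lower and 1 was higher. The median log2 difference of that list was -0.11, against 0.03 for all genes, and 12 of the 18 differences were below 0. The all-gene median takes in many dim genes and was not matched for level. Of the 18, 5 had an unadjusted limma p under 0.05 in either direction. Over all genes 21.3% were past that threshold. Whether these shares differ between pathways was not tested. Without GFP 4 the number of lower genes was 6 of other Fanconi anaemia genes, 3 of other end joining genes and 1 of other mismatch repair genes, and without hApoF 7 it was 1 of other end joining genes.

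The leading fall of the recombination list was that of Rad51c, a relative of the recombinase, from 6.90 ± 0.32 (SD, n = 6) to 5.53 ± 0.15 (log2 difference -1.37, limma adjusted p = 1.4e-05). Rpa1, the large subunit of the protein that coats single-stranded DNA, fell by 0.96, and by 0.31 with its lowest-mean probe set (limma adjusted p = 0.048). Mcm8, a helicase subunit active in recombination, fell by 0.52. Among checkpoint genes Cdc25c, the phosphatase that Chek1 inhibits, had a log2 difference of -1.2 (limma adjusted p = 2.9e-05), Tipin, a fork protection factor, fell by 0.65, and Mdm2, the ligase that targets p53 for degradation, fell by 0.57. In the crosslink list Ube2t, the conjugating enzyme for the clamp, fell by 0.72, Fancl, the ligase itself, fell by 0.47, and Dclre1a, a nuclease, fell by 0.37.

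Among base excision genes the catalytic subunit gene of polymerase epsilon, Pole, fell by 1.13 (limma adjusted p = 1.4e-04). With its lowest-mean probe set, however, the log2 difference of Pole was -0.09 and did not pass (limma adjusted p = 0.691). The ligase gene Lig1 fell by 0.90 and the endonuclease gene Apex2 fell by 0.32. Pole and Lig1 also act in DNA replication. The bypass polymerase genes Polk and Polh had log2 differences of -0.73 and -0.46, and Mad2l2, a subunit of a further bypass polymerase, had -0.38. The riser was Cetn2, a centrin that helps recognise bulky lesions, higher by 0.36 (limma adjusted p = 0.041). Cetn2 lost its call in 9 of 12 omissions of a single array (the highest limma adjusted p was 0.085, with GFP 5 left out) and Dclre1a in 8 (highest 0.090, with GFP 6 left out).

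**Figure D5:**
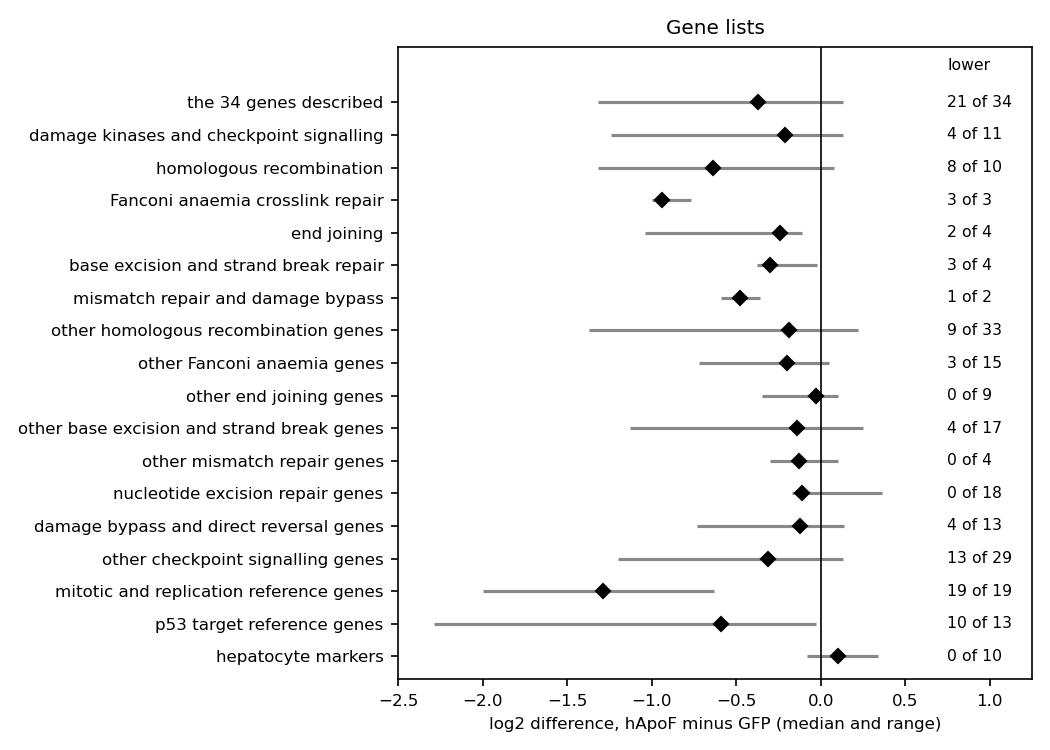
Median (diamond) and range (line) of the log2 difference, hApoF minus GFP, for the 34 genes, their role groups, the lists of other repair genes, and the reference lists. The number of genes lower by limma (adjusted p under 0.05) is at the right. Of the cell type marker lists only hepatocyte markers are plotted. Medians of the plotted lists run from -1.29 (mitotic and replication genes) to 0.10 (hepatocyte markers), and among the lists not plotted the endothelial median was 0.29.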

How the data were processed

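Per the submitters' processing notes, the arrays were processed with oligo and RMA, a method that subtracts background, quantile-normalizes the arrays and summarises each probe set by median polish. Settings, versions and build were not given in the sources used here. Values deposited by the authors are log2 values for 35145 probe sets on 12 arrays, with 0 missing, and were used as deposited. Of the probe sets, 23521 had 1 gene symbol in the platform annotation, which can be old, 1814 had several and 9810 had none listed. Probe sets with 1 symbol gave 22180 genes, each taken from its brightest probe set on average. No filter on dim genes was applied, and the number of arrays limits the precision.

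Groups came from the sample titles. The groups were compared with limma (version 3.58.1, R 4.3.3), using lmFit followed by eBayes at default settings, two-sided and without covariates, with Benjamini-Hochberg adjustment over all 22180 genes. Intervals are unadjusted 95% intervals. Exact two-sided permutation tests ran over the 924 assignments of 6 of 12 arrays and cannot give a p below 0.0022. The fit was tested on simulated data. Tables and plots used Python 3.11.15, pandas 2.3.3 and matplotlib 3.10.9.

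The genes and lists were chosen with earlier results of these data known. The rule named each of the 34 genes, up to 3 genes that passed from each list of other repair genes, and Mki67 and Cdkn1a. Of 158 different names on the lists of other repair genes 136 were measured, and the others were not analysed here. Some names, such as Clspn and Claspin, stand for the same gene, so not every name left out is a further gene. Slx4 is on both the recombination and the Fanconi anaemia list, and Brcc3 on both the recombination and the checkpoint list. Each counts once among the different names. Lists are described by counts and medians, without a set test. Alternatives were other scaling, variance model, array weights, a filter on dim genes, other probe sets, the permutation test and omission of arrays.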

Additional observations from a re-analysis of the deposited data

Results flagged for a closer look

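In 68 groups of 6 arrays (34 genes in 2 groups) the gap between the most extreme array and its neighbour was compared with the group's range, and 6 exceeded Dixon's critical value of 0.625. Chance flags about 1 in 20 groups. In 4 of the 6 the array was GFP 4, lowest of its group. It was at 6.21 in Chek1 (next array 6.51), at 5.98 in Brca1 (next 6.43), at 6.42 in Brca2 (next 6.96) and at 6.04 in Msh6 (next 6.56). Exo1 in hApoF 11 was at 4.71, below the next array at 5.18. Rad18 in hApoF 8 was at 6.44, above the next array at 6.24. GFP 4 also had the highest mean of the GFP arrays in 7 of 9 cell type marker lists, among them macrophage and Kupffer cell markers at 7.84 (next GFP array 7.46). Whether the marker levels bear on the low values was not tested.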

How the results depend on the processing

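The number of the 34 genes lower in hApoF livers was 17 to 22 when 1 array was left out, 23 without GFP 4 and hApoF 12 together, and 14 to 22 under the other settings, with 0 higher throughout. The filter on dim genes kept only 28 of the 34 in the fit, and 18 of these were lower. Quantile normalizing the deposited values again also gave 18, with Prkdc, Parp1 and Parp2 no longer passing. The 14 came from the exact permutation test, which after adjustment over all genes can call only genes at its smallest p. That test called 18 in place of 33 lower genes among the other DNA repair genes, whose count was 25 to 46 with 1 array left out. The 14 genes without overlap between groups became 12 with arrays centred on their medians, 14 to 21 with 1 array left out and 23 without GFP 4 and hApoF 12, where fewer arrays make separation easier. Of the 21 genes that fell, 14 kept their call under each alternative they were run in, 10 of them under all 21 and 4 (Bard1, Rad54l, Fancb and Fanci) under 20, since the filter on dim genes removes them. Topbp1, Rad51ap1 and Exo1 lost it under the permutation test alone, and Prkdc, Parp1, Parp2 and Neil3 under several, including 6, 8, 8 and 10 of 12 omissions. Of the 13 others, 4 gained a call (Atrip, Rad50, Xrcc3 and Msh6). Atm and Ung, whose log2 differences were -0.02, reached 0.04 in both when the values were quantile normalized again, and ran from -0.10 to 0.00 and from -0.06 to 0.02 with 1 array left out. Pole lost its call with the lowest-mean probe set (log2 difference -0.09, limma adjusted p = 0.691). No paired analysis was possible because the groups share no replicate number. Values of 6 genes that fell had hApoF means below the median array value, and signal over background was not available to bound them.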

Other observations

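Of the 34 genes, 27 had an unadjusted exact permutation p under 0.05, beside 21.2% of all genes. Among them was Trp53bp1, whose values were higher in hApoF livers (exact permutation p = 0.0043, limma adjusted p = 0.257).

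In within-array differences between partner genes a shift common to all genes of an array cancels, while scaling that depends on the level need not. These differences overlapped between the groups for the 2 effector kinases and for several complexes. Chek1 minus Chek2 ran from 0.07 to 0.38 in GFP and from -0.25 to 0.19 in hApoF arrays. Its mean was 0.20 ± 0.12 (SD, n = 6) in GFP and -0.13 ± 0.16 in hApoF arrays, a shift of -0.33. The overlap came through hApoF 12 alone, and the other hApoF arrays lay below all GFP arrays. Parp1 minus Parp2 was 0.57 ± 0.14 (SD, n = 6) and 0.62 ± 0.14. Mre11a minus Rad50 was -0.14 ± 0.15 and -0.12 ± 0.29, and Xrcc5 minus Xrcc6 1.36 ± 0.12 and 1.44 ± 0.23. These pairs were chosen after the values were seen and were not tested.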
